A study of Mus musculus with 4 samples.

Results

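The early gonad transcription factors described here are 8 genes grouped as regulators of the forming genital ridge and early gonad: Nr5a1, Wt1, Lhx9, Emx2, Gata6, Tcf21, Osr1 and Nr0b1. They were chosen by gene symbol and are 8 of 40999 listed features. RNA was taken from embryonic gonads of C57BL/6J wild-type mice on 4 consecutive days, E11.5 to E14.5 (E, embryonic day), with gonads of XX and XY embryos mixed in equal numbers in each pool. The E11.5 pool held whole genital ridges, that is the gonad together with the mesonephros, whereas from E12.5 the gonad was freed of it. Each day gave 1 stranded library depleted of ribosomal RNA, so no difference has a replicate check, every interval covers counting error only, and no test of a change between days was possible. Because male and female gonads shared a library, a level is the mixture of both sexes, and in such bulk RNA fewer cells of a type and less RNA per cell cannot be told apart.

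The genital ridge forms as the coelomic epithelium thickens along the mesonephros and its cells give rise to the supporting and steroid-producing lineages. WT1, EMX2, LHX9, GATA6 and the orphan nuclear receptor NR5A1 act in this bipotential tissue, and NR5A1 goes on to switch on steroidogenic genes and Amh. OSR1 works earlier and more widely in the intermediate mesoderm, TCF21 in the mesenchyme of many organs, and NR0B1 (DAX1) is a nuclear receptor relative that dampens the activity of NR5A1.

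Levels are CPM, counts relative to the size of their library, scaled by TMM (the trimmed mean of M values, edgeR), a scaling that puts the bulk of genes at equal level across libraries. Between 25593453 (E12.5) and 31752562 (E13.5) deduplicated counts were listed per library. The floor behind a count of 0 is 3 counts, or 0.0945 to 0.117 CPM before scaling. The E14.5 library stood apart, since the ribosomal RNA gene Rn18s-rs5 held 40.7% of its counts against 1.03% to 9.06% in the others, and its TMM factor was 0.597 against 1.10 to 1.25. A log2 fold change is positive where the later day was higher, and a gene is called past 2-fold at a log2 fold change of 1 or more in either direction. All 8 factors passed the filter on low counts, which kept 20114 features, and none of them had fewer than 111 counts in any library. Markers of the labelled tissue were present, as Dazl of germ cells reached 8230 counts, Sox9 of Sertoli cells 4282 and Wnt4 of pregranulosa cells 2776.

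Wt1, a zinc finger gene on chromosome 2 (mm10 chr2:105126529-105173614, plus strand), was the most abundant of the 8 per length of exon at E11.5, E12.5 and E13.5, with 101, 90.4 and 78.0 scaled CPM per kb. At E14.5 its level per kb was 57.9, and Tcf21 then stood first with 71.7. Nr5a1 per kb stood at 12.8, 32.6, 34.3 and 36.9 over the 4 days, at place 5 of the 8 on the first day and at place 3 afterwards. Osr1 and Nr0b1 held the lowest 2 places in every library, Osr1 at 1.76 to 8.92 per kb and Nr0b1 at 3.67 to 6.63 per kb. The sum of the 8 levels per kb was 239, 279, 256 and 230, so that the share of Wt1 went from 42.4% at E11.5 to 25.1% at E14.5 and that of Nr5a1 from 5.38% to 16.0%. The composition of the group therefore differed more between days than its summed level did.

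**Figure D1:**
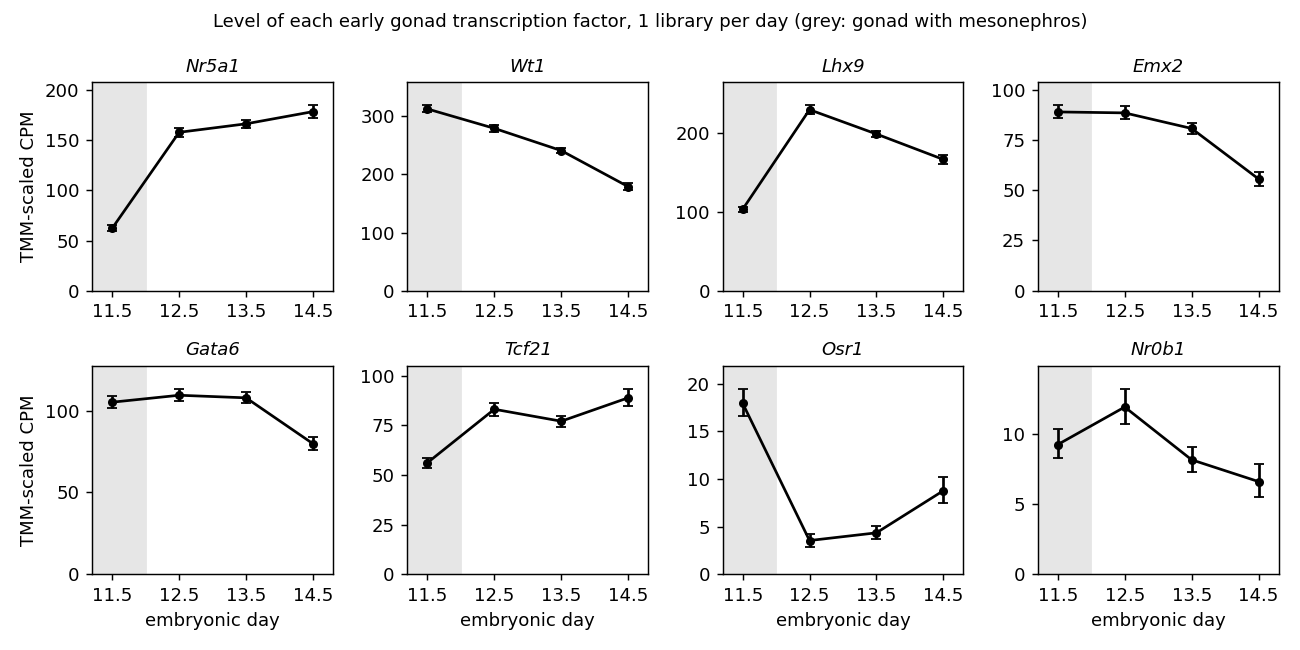
Each panel plots 1 of the 8 factors, with the embryonic day on the x axis and TMM-scaled CPM on the y axis from 0; points are single libraries, bars the exact 95% counting interval, and grey marks the gonad taken with its mesonephros. Nr5a1 and Lhx9 stand lowest on the first day with 62.3 and 103, Osr1 stands highest there with 17.9, and Wt1 is lower on each later day, from 313 to 179.

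Between E11.5 and E12.5, Nr5a1 and Lhx9 rose past 2-fold and Osr1 fell past 2-fold, while the other 5 factors stayed within that limit. The 3 of 8 called stand beside 19.3% of all 20114 tested features past 2-fold (9.69% higher and 9.60% lower). Among the features whose higher library reached 100 counts, as it did for all 8 factors, 1567 of 13626 were past 2-fold. The median log2 fold change of the 8 was 0.21, beside −0.0019 for all tested features. The removal of the mesonephros and a day of development separate these libraries at once, and their parts in the differences cannot be told apart. Summed over 12 mesonephros and nephric markers, the scaled level was 279, 45.7, 35.9 and 46.4 CPM over the 4 days, and 10 of the 12 fell past 2-fold at E12.5, led by count by Pax2, Eya1, Sall1 and Six2. None of these 12 markers was at 0 in any library.

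Nr5a1 lies on chromosome 2 (chr2:38692656-38714558, minus strand) with 4852 exon bases in the files and had 2136, 4962, 6595 and 3366 counts over the 4 days in order. Scaled, these were 62.3, 158, 167 and 179 CPM, low at E11.5 and within a narrow range from E12.5 on. The log2 fold change from E11.5 to E12.5 was 1.34 (95% counting interval 1.27 to 1.42), a 2.54-fold rise. From E12.5 to E13.5 it was 0.08 (0.02 to 0.13) and from E13.5 to E14.5 it was 0.10 (0.04 to 0.16). The scaled level thus moved by 1.13-fold in all over the 3 libraries without mesonephros.

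Lhx9, a LIM homeodomain gene on chromosome 1 (chr1:138825186-138848647, minus strand), had 3543, 7223, 7885 and 3141 counts, or 103, 230, 199 and 167 scaled CPM. It was lowest at E11.5 and highest at E12.5. The log2 fold change was 1.15 (1.10 to 1.21) from E11.5 to E12.5, −0.21 (−0.25 to −0.16) to E13.5 and −0.26 (−0.32 to −0.20) from E13.5 to E14.5. After sharing the direction at E12.5, Nr5a1 and Lhx9 parted, and the within-library ratio of Nr5a1 to Lhx9 per exon length, which needs no scaling, was 1.10 (1.04 to 1.16), 1.25 (1.21 to 1.30), 1.53 (1.48 to 1.58) and 1.96 (1.86 to 2.06) over the days.

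Osr1, the odd-skipped related zinc finger gene on chromosome 12 (chr12:9574442-9581500, plus strand), had 615, 111, 172 and 165 counts. These were 17.9, 3.54, 4.35 and 8.77 scaled CPM, highest in the library with mesonephros. It fell 5.07-fold at E12.5 (log2 fold change −2.34, interval −2.65 to −2.05). At E13.5 the log2 difference of 0.30 from E12.5 had an interval that held 0 (−0.06 to 0.65). Osr1 fell together with the nephric markers, and 7 gut and splanchnic mesoderm markers also stood at a summed 55.5 CPM at E11.5 and 14.8 at E12.5, with 6 of 7 past 2-fold lower. The part of these cells in the Osr1 value was not tested.

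The remaining factors moved less at E12.5. Wt1 had 10724, 8769, 9544 and 3371 counts, or 313, 279, 241 and 179 scaled CPM, and its log2 fold change was −0.16 (−0.20 to −0.12) at E12.5. Emx2, a homeodomain gene on chromosome 19 (chr19:59458136-59465357, plus strand), had 3045, 2773, 3191 and 1045 counts, or 88.9, 88.4, 80.6 and 55.5 scaled CPM. Its E11.5 and E12.5 levels did not differ beyond counting error (−0.0078, interval −0.08 to 0.07). The same held for Gata6, a GATA zinc finger gene on chromosome 18 with 3602, 3431, 4265 and 1501 counts, or 105, 109, 108 and 79.7 scaled CPM (0.06, interval −0.01 to 0.12). Wt1, Emx2 and Gata6 were thus near level between a ridge with mesonephros and a gonad without it, and each stood lowest at E14.5.

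Tcf21, a basic helix-loop-helix gene on chromosome 10 (chr10:22817263-22820128, minus strand), had 1925, 2608, 3051 and 1673 counts, or 56.2, 83.1, 77.1 and 88.9 scaled CPM. It stood lowest at E11.5 and differed at E12.5 by a log2 fold change of 0.57 (0.48 to 0.65), short of 2-fold. Nr0b1, on the X chromosome (chrX:86191775-86195944, plus strand), had 316, 373, 322 and 124 counts, or 9.22, 11.9, 8.14 and 6.59 scaled CPM. Its level was highest at E12.5, where the log2 fold change from E11.5 was 0.37 (0.15 to 0.59). Per exon length the within-library ratio of Nr5a1 to its antagonist Nr0b1 was 2.50 (2.22 to 2.82), 4.92 (4.43 to 5.48), 7.57 (6.77 to 8.50) and 10.04 (8.39 to 12.1) over the days. No 2 neighbouring days had overlapping intervals except E13.5 and E14.5, which met between 8.39 and 8.50.

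The 250 bases upstream of the RefSeq start were at hand for Lhx9, Emx2, Tcf21 and Nr0b1 (GRCm38, the build called mm10 in the files), and those of Nr0b1 and Tcf21, which lie outside the exons counted for the gene, are shown as the upstream sequence of the X-linked antagonist of NR5A1 and of the factor that stood first per length at E14.5. Capitals mark AGGTCA, the core of nuclear receptor sites such as that of NR5A1, in Nr0b1 (chrX:86191525-86191774, plus strand) and AGATAA, bound by GATA factors, in Tcf21 (chr10:22820144-22820393, minus strand), both printed 5′ to 3′ toward the gene.
Nr0b1: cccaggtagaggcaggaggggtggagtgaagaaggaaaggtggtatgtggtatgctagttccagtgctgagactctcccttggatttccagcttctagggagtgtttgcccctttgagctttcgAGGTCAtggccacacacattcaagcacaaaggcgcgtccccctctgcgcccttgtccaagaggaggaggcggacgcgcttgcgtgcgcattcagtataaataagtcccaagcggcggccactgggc
Tcf21: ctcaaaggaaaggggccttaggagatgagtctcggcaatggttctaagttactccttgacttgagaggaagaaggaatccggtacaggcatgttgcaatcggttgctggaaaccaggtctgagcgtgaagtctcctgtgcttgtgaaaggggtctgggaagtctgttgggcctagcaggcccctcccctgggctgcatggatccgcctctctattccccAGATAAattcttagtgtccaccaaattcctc
The Nr0b1 match begins 126 bases before the start and the Tcf21 match 31 bases before it. Searched on both strands, AGGTCA occurs in 14.02% of 32851 promoter windows of this length and AGATAA in 9.99%. Of the other letters searched, TGATAA, a second site of GATA factors, occurs once in Lhx9 (7.94% of windows), and CANNTG, the E-box of basic helix-loop-helix factors, once in Lhx9 (66.2%). CAAGGTCA, an extended NR5A1 site that contains AGGTCA (1.33%), TAATTA, a homeodomain core (4.84%), and GCGGGGGCG, a GC-rich zinc finger site (2.57%), are in none of these 4 windows. A match is a stretch of letters and no binding was measured.

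Between E12.5 and E13.5 none of the 8 factors passed 2-fold, beside 6.85% of all tested features (3.91% higher, 2.93% lower), and 197 of the 13567 whose higher library reached 100 counts. The median of the 8 was −0.12 on the log2 scale, beside 0.0042 for all tested features. Nr0b1 had the largest absolute difference of the 8, at −0.55 (−0.77 to −0.33), and Wt1 stood at −0.21 (−0.25 to −0.17). Gata6 did not differ beyond counting error (−0.02, interval −0.09 to 0.04), Emx2 stood at −0.13 (−0.21 to −0.06) and Tcf21 at −0.11 (−0.18 to −0.03).

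Between E13.5 and E14.5, Osr1 rose past 2-fold and the other 7 did not. That is 1 of 8, beside 11.04% of all tested features (7.42% higher, 3.61% lower), and 469 of the 13585 whose higher library reached 100 counts. The log2 fold change of Osr1 was 1.01 (0.70 to 1.33), so its interval reached below 2-fold, and it rested on 172 and 165 counts. Its direction rests on the scaling, since with total counts in place of TMM it was −0.050 and with the deposited TPM −0.61. Those scalings shift every feature of a comparison by nearly the same amount, with the median tested feature at −1.07 and −1.63. Osr1 therefore stood above the median by much the same margin under each, and they are no separate checks of its rise. Beside Osr1, 2 of 10 interstitium markers, Col1a1 and Dcn, rose past 2-fold, with log2 fold changes of 1.05 and 1.30. The median of the 10 was 0.33. Col1a1 had 24798 and 24489 counts at E13.5 and E14.5 and Dcn 2667 and 3118, so these calls also rest on the TMM scaling. The 12 nephric markers had 4 members past 2-fold higher. The part of these cells in the Osr1 value was not tested at E14.5 either.

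The log2 fold changes of the other factors from E13.5 to E14.5 were mostly below 0. Emx2 stood at −0.54 (−0.64 to −0.44), Gata6 at −0.43 (−0.52 to −0.35) and Wt1 at −0.43 (−0.49 to −0.37). These 3 factors of the early epithelium and ridge moved by much the same amount. Nr0b1 was at −0.30 (−0.62 to −0.0013), on 322 and 124 counts, whereas Tcf21 was at 0.21 (0.12 to 0.29). The median of the 8 was −0.28, beside −0.0087 for all tested features. Coelomic epithelium markers, 8 genes with Podxl and Aldh1a2 the most counted, summed to 669, 516, 440 and 299 scaled CPM over the 4 days, and none of the 8 passed 2-fold at E14.5 against E13.5. The sum rests on few genes. From E11.5 to E12.5, where the mesonephros was removed, Aldh1a2 went from 226 to 69.5 CPM. In that step 2 of the 8 markers fell past 2-fold and 2 had log2 fold changes above 0. From E13.5 to E14.5 much of the difference in the sum lay in Podxl, which went from 308 to 186 CPM, while 3 of the 8 markers had log2 fold changes above 0. Their part in the values of Wt1, Emx2 and Gata6 was not tested.

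Over the whole stretch without mesonephros, E14.5 against E12.5, Osr1 was again the only one of the 8 factors past 2-fold, at 1.31 (0.95 to 1.67), a comparison that shares its libraries with those above. This stands beside 14.3% of all tested features (9.63% higher, 4.68% lower), and 733 of the 13069 whose higher library reached 100 counts. With the deposited TPM its value was −0.18, while the median tested feature shifted by −1.49. Nr0b1 stood at −0.85 (−1.16 to −0.55), Emx2 at −0.67 (−0.77 to −0.57), Wt1 at −0.64 (−0.70 to −0.58), Lhx9 at −0.46 (−0.53 to −0.40) and Gata6 at −0.46 (−0.54 to −0.37). Nr5a1 and Tcf21 were the other members above 0, at 0.18 (0.11 to 0.24) and 0.10 (0.0073 to 0.19). In the deposited TPM both were lower at E14.5 than at E12.5. The median of the 8 was −0.46, beside −0.0010 for all tested features.

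**Figure D2:**
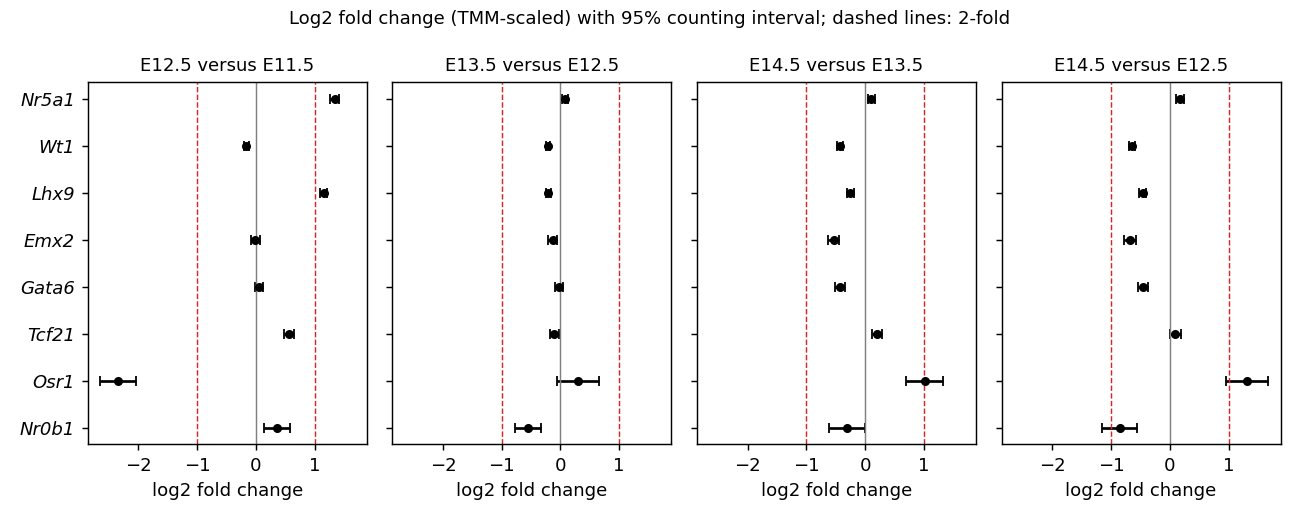
The 4 panels plot, for each comparison named above a panel, the log2 fold change of each factor on the x axis with its exact 95% counting interval, and dashed lines mark 2-fold. Nr5a1 (1.34), Lhx9 (1.15) and Osr1 (−2.34) lie wholly beyond the lines at E12.5 against E11.5, and Osr1 lies across the upper line in both comparisons of E14.5.

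The deposited TPM, which divide by exon length and by the library's own sum, were lower at E14.5 than at E13.5 for all 8 factors. Wt1 had 156, 170, 161 and 38.8 TPM in the order of the days, Nr5a1 had 19.8, 61.3, 70.7 and 24.7, and Tcf21 had 70.0, 126, 128 and 48.1. These values fall at E14.5 together with those of most genes in a library where 10 features took 57.3% of the counts. Ratios of 2 genes within 1 library do not depend on that share.

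Per exon length, Wt1 stood above Nr5a1 in every library, but by less on each later day. The ratio of Wt1 to Nr5a1 was 7.88 (7.52 to 8.26), 2.77 (2.68 to 2.87), 2.27 (2.20 to 2.34) and 1.57 (1.498 to 1.65) over the days, with no overlap between days. The ratio of Wt1 to Emx2 ranged less, at 3.59 (3.45 to 3.74), 3.22 (3.09 to 3.37), 3.05 (2.93 to 3.17) and 3.29 (3.07 to 3.53), and its interval on the first day overlapped that of E14.5 alone. Lhx9 stood below Emx2 at E11.5, with a ratio of 0.414 (0.394 to 0.435), and close to it later, at 0.927 (0.887 to 0.968), 0.879 (0.844 to 0.916) and 1.07 (0.997 to 1.15). The ratio of Tcf21 to Osr1 was 5.08 (4.64 to 5.57), 38.1 (31.5 to 46.5), 28.8 (24.7 to 33.8) and 16.5 (14.02 to 19.4). The intervals of E12.5 and E13.5 overlap, on 111 and 172 counts of Osr1, and both lie above those of the other days.

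**Figure D3:**
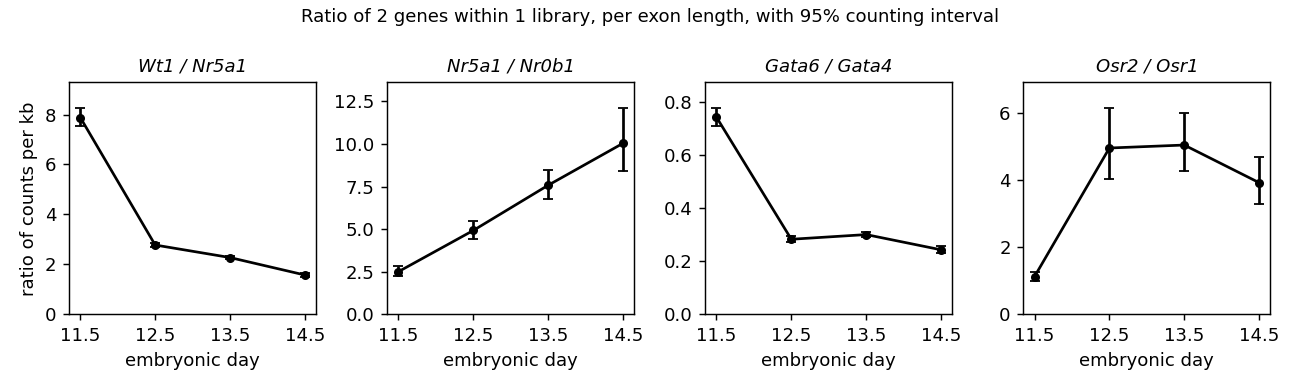
Each panel plots, by embryonic day, the ratio of 2 genes per exon length within a library on a y axis from 0, with the exact 95% counting interval. The ratio of Wt1 to Nr5a1 goes down from 7.88 to 1.57 and that of Nr5a1 to Nr0b1 goes up from 2.50 to 10.04, while Gata6 to Gata4 and Osr2 to Osr1 change mainly between E11.5 and E12.5.

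Close relatives of the factors, from the same families, were followed beside them. Of 11 relatives, 4 rose and 4 fell past 2-fold at E12.5, with a median of −0.20, and none passed 2-fold at E13.5 or between E13.5 and E14.5. Nr5a2, the relative of Nr5a1, had 115, 332, 393 and 139 counts and rose by 1.66 on the log2 scale (1.35 to 1.98) at E12.5, and the Nr0b1 relative Nr0b2 rose by 2.74 (1.86 to 3.77) from 12 to 74 counts. Among GATA genes, Gata3 fell by 3.55 (log2 interval −3.89 to −3.23), Gata2 fell by 2.59 (−2.74 to −2.45) and Gata5 fell by 1.97 (−2.36 to −1.60), whereas Gata6 stayed within counting error. The basic helix-loop-helix relatives of Tcf21, Tcf23 and Msc, rose by 2.05 (1.66 to 2.45) and 1.70 (0.64 to 2.91), Msc on 10 and 30 counts. Emx1 fell by 2.17 (−3.94 to −0.78) on 25 and 5 counts, and the Lhx9 relative Lhx2 did not differ beyond counting error (−0.03, interval −0.44 to 0.37). Gata1, the erythroid GATA factor, rose by 1.58 (1.01 to 2.18) from E12.5 to E14.5, as did Msc by 1.18 (0.47 to 1.92), which was −0.30 with the deposited TPM.

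Osr2 took a different course from Osr1. It had 618, 492, 776 and 579 counts, or 18.0, 15.7, 19.6 and 30.8 scaled CPM, and its log2 fold change at E12.5 was −0.20 (−0.38 to −0.03). Per exon length the ratio of Osr2 to Osr1 was 1.13 (1.01 to 1.26) on the first day and 4.97 (4.03 to 6.16), 5.05 (4.28 to 6.00) and 3.93 (3.30 to 4.70) on the later ones. Osr2 thus stood close to Osr1 in the ridge with mesonephros and well above it in the dissected gonad.

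Gata4, the partner of Gata6 in the gonad, rose with Nr5a1 and Lhx9. It had 4026, 10077, 11790 and 5129 counts, or 117, 321, 298 and 272 scaled CPM, and its log2 fold change at E12.5 was 1.45 (1.40 to 1.504). The ratio of Gata6 to Gata4 per exon length was 0.741 (0.709 to 0.776) at E11.5 and 0.282 (0.271 to 0.293), 0.300 (0.289 to 0.310) and 0.242 (0.229 to 0.257) on the later days. The ratio of Nr5a1 to Gata4 ranged less, from 0.372 (0.353 to 0.392) at E11.5 to 0.345 (0.334 to 0.357), 0.392 (0.381 to 0.404) and 0.460 (0.440 to 0.481). Of 15 other regulators of the ridge, Gata4 alone rose past 2-fold at E12.5, and the homeodomain gene Meis1 was among those that fell past 2-fold, by 1.47 (−1.54 to −1.41) on the log2 scale. No other comparison had one of these 15 past 2-fold, and their medians were −0.09, −0.01, −0.06 and −0.07 in the 4 comparisons.

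Genes that NR5A1 is known to activate were followed as a group of 10, with enzymes and carriers of steroid synthesis and hormones of the supporting and Leydig cells. All 10 rose past 2-fold at E12.5, beside 9.69% of all tested features, and their median on the log2 scale was 2.49, beside 1.34 for Nr5a1 itself. The list was chosen with earlier results of these data known, and the mesonephros was removed in this step. The count therefore describes these genes, and the part of NR5A1 in it was not tested. At E13.5, Star, Cyp11a1, Cyp17a1, Hsd3b1 and Insl3 rose again past 2-fold, the median of the 10 being 1.10. None of the 10 did so between E13.5 and E14.5, with a median of 0.51, and 7 had risen from E12.5 to E14.5, with a median of 1.59. The testis hormone gene Amh had 45, 8900, 10299 and 5683 counts, and Cyp17a1, an androgen-synthesis enzyme, had 5, 1437, 10503 and 8720. Insl3, a Leydig cell hormone, had no count at E11.5 and 47 at E12.5, at least 17.1-fold higher against a floor of 3 counts per library. Scarb1 and Inha were among the 7 but stood at −0.22 and −0.27 with the deposited TPM. From E13.5 to E14.5 the highest value of the 10 was 0.89, while TPM shifted the median tested feature by −1.63. The rises in that step therefore rest on the TMM scaling.

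Set against Nr5a1 within each library, Cyp11a1 and Star gained on every day, which not all targets did. Per exon length, the ratio of Cyp11a1, the enzyme of the first step of steroid synthesis, to Nr5a1 was 0.298 (0.259 to 0.342), 0.578 (0.540 to 0.618), 3.09 (2.98 to 3.19) and 4.90 (4.69 to 5.11) over the days. For Star, the carrier of cholesterol into mitochondria, it was 0.0969 (0.0825 to 0.113), 0.245 (0.228 to 0.262), 0.644 (0.618 to 0.671) and 0.890 (0.844 to 0.937). By contrast, the log2 fold change of Amh from E12.5 to E13.5 was −0.12 (−0.17 to −0.08), where Nr5a1 stood at 0.08. From E13.5 to E14.5, Amhr2, the receptor gene of that hormone, stood at −0.29 (−0.40 to −0.19) and the electron carrier gene Fdx1 at −0.15 (−0.25 to −0.06), where Nr5a1 stood at 0.10. The adrenal cortex, which also uses NR5A1, was represented by 6 markers with a summed 5.49, 4.37, 10.3 and 20.6 scaled CPM, and Cyp11b1 had 5, 1, 80 and 147 counts. Of the 5 markers that passed the filter, 1 rose and 2 fell past 2-fold at E12.5, and 3 rose at E13.5. From E13.5 to E14.5, 2 rose, and from E12.5 to E14.5, 4 rose, with a median of 1.98. Mc2r, with 145, 79, 136 and 57 counts, was the marker that did not pass 2-fold in any comparison. The part of adrenal cells in the steroidogenic values was not tested.

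Other cell types of the pools were followed by their markers. Of 8 Sertoli cell markers 7 rose past 2-fold at E12.5 (median 3.02, summed level 164, 580, 491 and 448 scaled CPM), of 8 pregranulosa markers 5 rose (median 1.32, summed level 174, 259, 339 and 259), and of 8 germ cell markers 5 rose (median 2.74, summed level 68.3, 363, 440 and 350). Interstitium markers, 10 genes, summed to 1899, 2005, 2523 and 4127, with 2 past 2-fold higher at E12.5 and 3 from E12.5 to E14.5. Much of the difference in that sum from E12.5 to E14.5 lay in 2 collagen genes. Col1a1 went from 371 to 1301 CPM and Col3a1 from 691 to 1519, while the median log2 fold change of the 10 was 0.38. No endothelial marker of 6 passed 2-fold in any comparison, 5 of 5 macrophage markers fell at E12.5, and of 4 erythroid markers 1 fell at E12.5 and 2 rose at E13.5. Of 15 housekeeping genes none passed 2-fold in any of the 4 comparisons, and their medians lay between −0.04 and 0.01. The part of any of these cells in the levels of the 8 factors was not tested.

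Transcripts near the factors were sought within 10 kb on either strand. Wt1os starts on the opposite strand 18 bases from Wt1 and had 1032, 670, 735 and 216 counts. Emx2os overlaps the first exon bases of Emx2 on the opposite strand by 500 bases, 9.95% of its own exons, and had 1066, 801, 1015 and 303 counts. 1010001N08Rik, opposite to Gata6, had 168, 142, 199 and 65 counts. These 3 were lowest at E14.5 in scaled CPM, as were their partners, and none passed 2-fold in any comparison. Gm10824, which lies across Tcf21 on the opposite strand with no shared exon bases, had 23, 22, 42 and 24 counts, or 0.671, 0.701, 1.06 and 1.28 scaled CPM, and was highest at E14.5, as Tcf21 was. Its interval held 0 in all 4 comparisons. From E13.5 to E14.5 Wt1os stood at −0.69 (−0.92 to −0.47) on the log2 scale, Emx2os at −0.67 (−0.86 to −0.49) and 1010001N08Rik at −0.54 (−0.97 to −0.13). The library kit keeps the strand, but the study's methods do not state whether the counting used it. Reads in the shared exon bases, 500 for Emx2os and 93 for 1010001N08Rik, may therefore not have been told apart by strand.

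**Figure D4:**
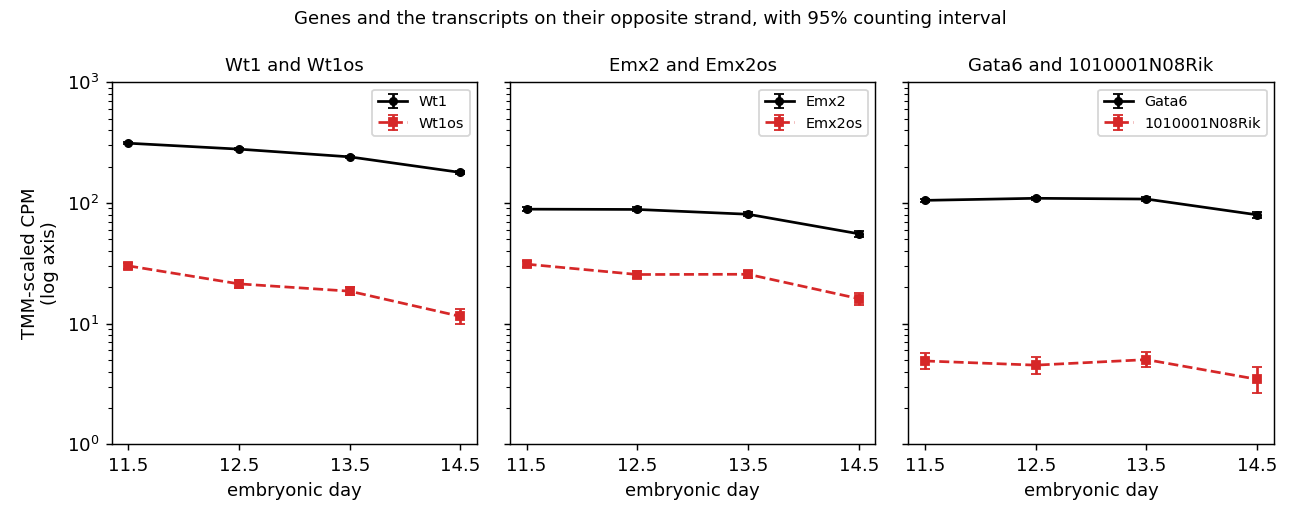
TMM-scaled CPM (log axis) are plotted by embryonic day for Wt1, Emx2 and Gata6 (black) and the transcript on the opposite strand (red, dashed), with exact 95% counting intervals. Each transcript lies below its gene in every library, and both lines of each panel are lowest at E14.5.

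As a ratio per exon length, Emx2os was 0.220 (0.205 to 0.236) of Emx2 at E11.5 and 0.181 (0.167 to 0.196), 0.1996 (0.186 to 0.214) and 0.182 (0.160 to 0.207) later, with no overlap between the intervals of E11.5 and E12.5. For 1010001N08Rik and Gata6 the ratio was 0.192 (0.163 to 0.224), 0.170 (0.143 to 0.201), 0.192 (0.166 to 0.221) and 0.178 (0.137 to 0.228), with overlapping intervals on all days. Wt1os also had its highest ratio on the first day, with 0.0911 (0.0854 to 0.0971) of Wt1 at E11.5 and 0.0723 (0.0668 to 0.0782), 0.0729 (0.0675 to 0.0786) and 0.0606 (0.0526 to 0.0696) afterwards, all below the first interval. On the same strand as Nr5a1 and 8810 bases away, Nr6a1, a nuclear receptor gene of germ cells, had 368, 773, 1486 and 372 counts. It rose by 1.20 (1.02 to 1.38) on the log2 scale at E12.5, as Nr5a1 did, but stood at 0.61 (0.48 to 0.74) at E13.5 and −0.93 (−1.09 to −0.76) at E14.5, unlike Nr5a1.

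The 8 factors fell into few shapes over the 4 days. The distance between the centred log2 levels of a pair was smallest for Wt1 and Emx2 (0.17) and for Emx2 and Gata6 (0.21), and largest for Nr5a1 and Osr1 (2.93). Among the 11639 genes that reached 100 counts in each of the 4 libraries, those nearest to Nr5a1 were Col4a2 (distance 0.05), Rgs11 and Gpc4. Nearest to Wt1 were Inadl, Ccdc85c and Unc5b, to Lhx9 Gm7591, Gpr37 and Entpd5, to Emx2 Actr6, Parvb and Hic2, to Gata6 Prkcd, Epb4.1l5 and Nek4, to Tcf21 Cst3, Anxa5 and Mcam, and to Nr0b1 Syk, Dlec1 and Acot1. Osr1 had the most distant first neighbours, Ddr2 (0.25), Has2 (0.27) and Pclo (0.36). With 4 libraries as points these distances describe the shapes only.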

How the data were processed

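Per the labels and the study's methods, total RNA was made into stranded libraries with unique molecular identifiers and reads were aligned to mm10 with STAR, deduplicated with UMI-tools and counted per gene with featureCounts. The deposited values used here are counts, TPM and RPKM, which the authors computed from those counts and exon lengths. The TPM and RPKM were recomputed from the deposited counts as a check, and RPKM was not otherwise used.

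Counts were filtered with edgeR 4.0.16 (filterByExpr, each library its own group) and scaled by TMM over the 4 libraries in R 4.3.3. Log2 fold changes used a prior count of 0.125 and exact Clopper-Pearson 95% intervals for counting error, computed in Python 3.11.15 with scipy 1.17.1. The code was tested on simulated data. The members and gene lists were chosen with earlier results of these data known, and the lists describe but are not tested. Named genes are the 8 factors, their relatives, other ridge regulators, NR5A1 targets, at most 4 of the most counted markers per list, features within 10 kb and the 3 nearest genes of each factor. Dcn and Rn18s-rs5, outside this rule, were chosen after their values were seen. Alternatives were DESeq2 1.42.0 size factors, total counts, TMM on each pair of libraries or on genes that reached 100 counts in all 4 libraries, other filters, a prior count of 2, the deposited TPM, and other call rules. Promoter sequences are from RefSeq, which matched 4 of the 8. A single gene of the ridge regulator list is not reported here.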

Additional observations from a re-analysis of the deposited data

How the results depend on the processing

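With 1 library per day, no difference has a replicate check. No paired analysis was possible because each day has 1 library. At E12.5 against E11.5 the 3 factors past 2-fold held under every scaling and filter tried, and an added FDR of at most 0.05 (edgeR's exact test) with the biological coefficient of variation set to 0.4 left 0, and 2 when set to 0.2. For E14.5 against E13.5, where 1 passed, total counts gave 5 and the deposited TPM 7, all lower, while a counting interval wholly beyond 2-fold gave 0 and the FDR at presets of 0.2 and 0.4 gave 0. For E14.5 against E12.5, where 1 passed, these gave 5, 7, 0, 0 and 0, and a limit of 1.5-fold gave 4, with 1 higher and 3 lower. Total counts shifted the median feature by 0.16, 0.03, −1.07 and −1.04 in the 4 comparisons, and TPM by 0.28, 0.13, −1.63 and −1.49. Among the calls of the 8 factors past 2-fold, Osr1 reversed from E13.5 to E14.5, to −0.050 with total counts and −0.61 with TPM. It also reversed from E12.5 to E14.5, to −0.18 with TPM. Nr5a1 and Tcf21, above 0 but within 2-fold with TMM in both comparisons, were lower at E14.5 in TPM. From E12.5 to E14.5 Nr5a1 had 61.3, 70.7 and 24.7 TPM, and Tcf21 126, 128 and 48.1. Of the calls among relatives and NR5A1 targets, Msc, Scarb1 and Inha reversed from E12.5 to E14.5 with TPM, to −0.30, −0.22 and −0.27. Under the other 4 scalings and priors the largest move of a log2 value of the 8 factors was 0.033. Of the 24 nearest genes, 23 were shared under another measure of likeness.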
